A study of Homo sapiens with 18 samples.

Results

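The genes described here are 31 genes that carry glucose into the cell, break it down to pyruvate and lactate, pass pyruvate to the mitochondria or set the pace of these steps. They were taken from a fixed list of symbols, out of 23250 gene symbols in the files. All 31 were found, 1 of them (TIGAR) under its older symbol C12orf5, and pyruvate kinase stood in the files as PKM2. All 31 passed the filter on low values, as did 12769 symbols in all.

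The study treated 3 established human lines of diffuse large B cell lymphoma (SUDHL6, Farage and SUDHL4) for 12 h with 10 µM of 79-6.1085, an inhibitor of BCL6, or with its vehicle DMSO. BCL6 is a transcriptional repressor of germinal centre B cells. RNA-seq gave 3 libraries in each of 6 groups, 18 in all: the DMSO and the inhibitor group of each line. No group carried any other agent or allele in the labels, and each line stands for 1 tumour. Whether the 3 libraries of a group were grown as separate cultures is not in the labels, so the p-values reflect no more than the spread of these libraries, which may be technical. The question asked of these genes was whether their messenger RNA levels differed between inhibitor and DMSO in each line, and whether that difference was the same in the 3 lines.

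Glycolysis turns glucose into pyruvate. Hexokinase traps glucose in the cell, phosphofructokinase commits it to breakdown, and pyruvate kinase closes the path. Pyruvate then either becomes lactate through lactate dehydrogenase, to leave through monocarboxylate transporters, or enters the mitochondria, where the pyruvate dehydrogenase complex makes acetyl-CoA unless its kinases switch it off. B cells of the germinal centre and the lymphomas that arise from them divide fast, and many of these genes are known targets of the hypoxia factor HIF1A and of MYC. The letters printed in capitals below are cores to which HIF1A binds. The E-box CACGTG, to which MYC binds, is in capitals only because it holds ACGTG.

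Promoter letters are shown first, for 5 genes that stand for the patterns described below: HK2, PFKFB4 and LDHA, which went in opposite directions in different lines, ALDOC, with the highest log2 difference of any member in SUDHL4, and PDHB, which was lower in all 3 lines. Each is the 250 bases before the start of the gene on the gene's strand, 5′ to 3′, from RefSeq on GRCh38.p14. Capitals mark ACGTG and GCGTG, forms of the core of the hypoxia response element, on either strand, so that the complements CACGT and CACGC are also in capitals. The E-box CACGTG holds ACGTG on both strands and counts as an ACGTG on each. The HK2 window is chr2:74833877-74834126 on the plus strand, LDHA is chr11:18394313-18394562 on the plus strand, PFKFB4 is chr3:48556804-48557053 on the minus strand, ALDOC is chr17:28576896-28577145 on the minus strand and PDHB is chr3:58433833-58434082 on the minus strand.
HK2: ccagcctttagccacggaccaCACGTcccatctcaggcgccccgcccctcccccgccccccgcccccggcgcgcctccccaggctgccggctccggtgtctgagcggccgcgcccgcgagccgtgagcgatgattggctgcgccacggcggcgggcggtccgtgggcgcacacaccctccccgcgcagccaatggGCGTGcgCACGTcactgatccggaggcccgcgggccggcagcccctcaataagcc
LDHA: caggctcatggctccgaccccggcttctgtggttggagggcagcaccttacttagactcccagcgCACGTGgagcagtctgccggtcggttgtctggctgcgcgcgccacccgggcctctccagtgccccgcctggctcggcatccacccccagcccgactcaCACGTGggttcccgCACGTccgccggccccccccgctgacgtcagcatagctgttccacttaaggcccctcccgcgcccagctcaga
PFKFB4: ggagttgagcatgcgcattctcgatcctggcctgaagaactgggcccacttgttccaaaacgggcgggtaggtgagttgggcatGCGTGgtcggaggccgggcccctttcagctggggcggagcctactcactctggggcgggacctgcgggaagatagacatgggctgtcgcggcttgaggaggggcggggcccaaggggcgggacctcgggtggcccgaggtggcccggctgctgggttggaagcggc
ALDOC: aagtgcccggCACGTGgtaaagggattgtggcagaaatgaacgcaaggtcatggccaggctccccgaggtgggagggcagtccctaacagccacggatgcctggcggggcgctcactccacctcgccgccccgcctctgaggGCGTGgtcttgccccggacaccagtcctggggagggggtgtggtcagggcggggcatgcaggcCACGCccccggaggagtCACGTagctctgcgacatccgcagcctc
PDHB: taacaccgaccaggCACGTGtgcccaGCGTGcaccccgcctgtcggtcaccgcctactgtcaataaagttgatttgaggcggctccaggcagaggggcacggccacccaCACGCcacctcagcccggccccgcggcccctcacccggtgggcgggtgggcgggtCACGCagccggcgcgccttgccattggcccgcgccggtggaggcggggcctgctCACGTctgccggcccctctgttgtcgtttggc
The LDHA window held 2 CACGTG and 1 further ACGTG, the ALDOC window 1 CACGTG, 1 further ACGTG and 2 GCGTG, and the PDHB window 1 CACGTG, 1 further ACGTG and 3 GCGTG. HK2 had 2 ACGTG and 1 GCGTG, and PFKFB4 had 1 GCGTG. Of the 28 members with a window, 11 held ACGTG (39.3%), against 22.2% of the 13095 windows of tested symbols. GCGTG was in 10 of 28 (35.7%, against 43.3%) and CACGTG in 4 of 28 (14.3%, against 8.32%). PFKFB2, SLC2A3 and SLC16A1 had no window in the table. Among members with a window, ACGTG was in 7 of 16 called higher in Farage and in 2 of 8 called lower there, and in 1 of 4 called higher in SUDHL6 and 5 of 17 called lower there. In SUDHL4 it was in 4 of 12 called higher and 2 of 8 called lower. Among members not called it was in 5 of 7 in SUDHL6, 2 of 4 in Farage and 5 of 8 in SUDHL4. These matches are a description of letters, with no test, and show neither binding nor control.

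Levels are CPM, read counts scaled to a common library total and not divided by gene length, so that they compare 1 gene between libraries and never 1 gene with another. Reads in listed genes ran from 6.29 M to 25.49 M per library, and the lowest was a SUDHL6 library. B cell markers summed to between 2083 and 6613 CPM over all libraries, while lists of 5 T cell, 4 monocyte or macrophage, 5 stromal and 3 epithelial genes summed to at most 2.12, 3.50, 7.31 and 0.249 CPM. The B cell sum was lower with the inhibitor in each line (5233 to 5513 against 2083 to 3145 CPM in SUDHL6, 3513 to 3673 against 2014 to 2130 in Farage, 6163 to 6613 against 4201 to 4319 in SUDHL4), and the sum of 4 plasma cell genes was higher (49.3 to 127 against 176 to 378 CPM in SUDHL6, 334 to 350 against 1091 to 1131 in Farage, 5.76 to 9.45 against 21.7 to 24.5 in SUDHL4). That plasma cell sum was mostly IRF4 in SUDHL6 and Farage and mostly XBP1 in SUDHL4. Of the other plasma cell genes, SDC1 averaged at most 0.678 CPM in any group, and PRDM1 averaged under 1 CPM in SUDHL6 and SUDHL4. In SUDHL4 XBP1 averaged 5.99 CPM with DMSO and 15.75 CPM with the inhibitor, and IRF4 0.927 and 6.84 CPM. The sum of 5 germinal centre genes was 510 to 719 CPM with DMSO and 353 to 567 CPM with the inhibitor in SUDHL6, which overlap. It was 545 to 574 against 366 to 404 CPM in Farage and 1005 to 1088 against 539 to 572 CPM in SUDHL4. Within that list the mean of MYBL1 was higher with the inhibitor in each line, and BCL6 in Farage averaged 204.8 and 211.1 CPM. The part of these markers in the results was not tested. Replicate 3 of both SUDHL6 groups was the shallowest library of its group and stood apart: 25 of the 31 members were highest in replicate 3 among the DMSO libraries, 17 among the inhibitor libraries and 17 in both. SUDHL4 DMSO replicate 3 also stood off from its group: over the 16 members that changed at least 1.5-fold in SUDHL4, it lay at a median of 15.6% of the way from the other DMSO libraries to the inhibitor libraries. Results that rest on these libraries are given also without them.

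With DMSO the 31 genes took between 1.17 and 1.56% of the reads in SUDHL6 (median 1.27%). Farage lay at 1.25 to 1.31% (1.25%) and SUDHL4 at 1.27 to 1.31% (1.28%). With the inhibitor SUDHL6 gave 0.955 to 1.23% (1.03%), Farage 1.75 to 1.88% (1.78%) and SUDHL4 1.61 to 1.68% (1.62%). The treated libraries of Farage and SUDHL4 thus lay above all of their DMSO libraries, while in SUDHL6 the groups overlapped, with the highest treated library above the lowest DMSO library. Between same-numbered SUDHL6 libraries the share was lower with the inhibitor each time, at 1.17 against 0.955%, 1.27 against 1.03% and 1.56 against 1.23%. Members with many reads weigh most in this share, so it does not describe the typical member. In Farage with DMSO, GAPDH, ENO1 and PKM2 averaged 1453, 1604 and 2021 CPM, where all 31 summed to between 9809 and 10550 CPM.

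**Figure D1:**
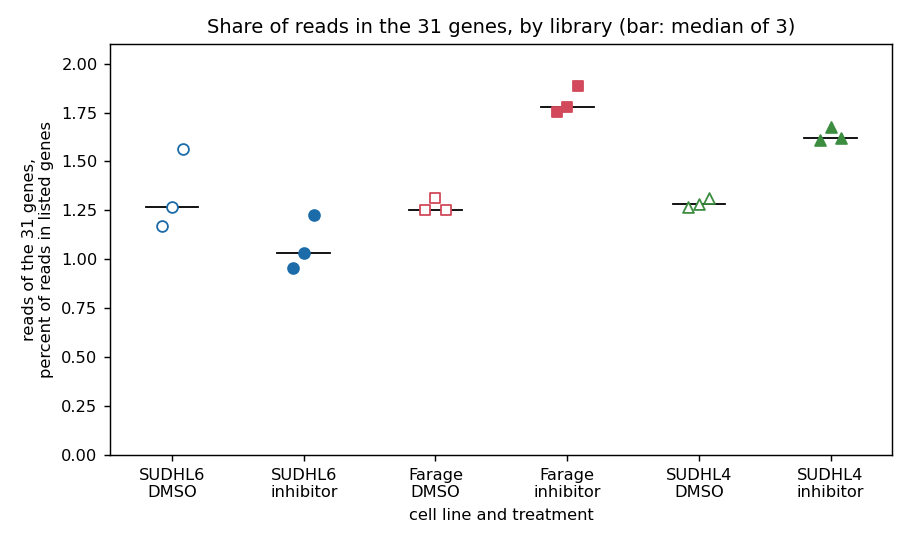
Share of all reads in listed genes that fell in the 31 genes (vertical axis, %), with 1 point per library, by line and treatment, and bars for the median of 3. The inhibitor libraries of Farage (1.75 to 1.88%) and SUDHL4 (1.61 to 1.68%) sit above their DMSO libraries, and those of SUDHL6 (0.955 to 1.23%) overlap theirs.

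In SUDHL6 more members fell than rose, and in Farage and SUDHL4 more rose than fell. A member is called higher or lower where its difference on the log2(CPM + 1) scale passed an adjusted p of 0.05 in limma, adjusted over all 12769 genes. In SUDHL6, 6 members rose, 18 fell and 7 were not called, where 26.8% of all genes tested rose and 41.3% fell. In Farage 18 rose, 9 fell and 4 were not called, where 25.4% of all genes rose and 46.5% fell. In SUDHL4 13 rose, 9 fell and 9 were not called, where 24.3% rose and 46.2% fell. The median log2 difference of the members was -0.51 in SUDHL6, 0.50 in Farage and 0.20 in SUDHL4, beside medians over all genes tested of -0.13, -0.22 and -0.21. Without the pair of shallow SUDHL6 libraries, 6 rose and 19 fell in SUDHL6, 20 rose and 9 fell in Farage, and 16 rose and 9 fell in SUDHL4. The shares of all genes above are from the main fit and are not given for the fit without that pair. The main fit does not pair the libraries. With the replicate number as a block, which pairs them in SUDHL6, PFKFB3, GAPDH, PGAM1 and ENO2 were also called lower in SUDHL6. No SUDHL6 call was lost with the block, and shares of all genes are not given for it. Averaged over the 3 lines in the main fit, 13 members rose and 11 fell (30.1% and 53.8% of all genes), with a median of 0.12 against -0.24 over all genes.

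These counts depend on the scaling, since scaling by the median of ratios brings the medians of all genes to -0.00, -0.04 and -0.00 in the 3 lines and -0.05 in their mean. With it, 7 members rose and 15 fell in SUDHL6, 20 rose and 5 fell in Farage, 17 rose and 7 fell in SUDHL4, and 18 rose and 11 fell in the mean of the lines. The members' medians were then -0.34, 0.74, 0.48 and 0.36. Over all genes that scaling moved the share of higher among the called genes from 39.4 to 48.8% in SUDHL6, 35.3 to 47.4% in Farage, 34.5 to 48.7% in SUDHL4 and 35.8 to 47.1% in the mean. The shares of all genes tested that rose or fell with that scaling are not given.

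Asking also for a fold of at least 1.5 left 2 members higher and 13 lower in SUDHL6 (16.4% and 29.3% of all genes), 12 and 4 in Farage (15.4% and 33.6%), 9 and 7 in SUDHL4 (15.5% and 34.3%), and 7 and 6 in the mean of the lines (14.7% and 31.9%). By libraries rather than by the fit, 4 members had all 3 treated SUDHL6 libraries above all 3 DMSO libraries and 15 had all below (24.4% and 36.5% of all genes). The same held for 20 above and 9 below in Farage (30.6% and 53.2%), and for 16 above and 10 below in SUDHL4 (28.9% and 51.6%).

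**Figure D2:**
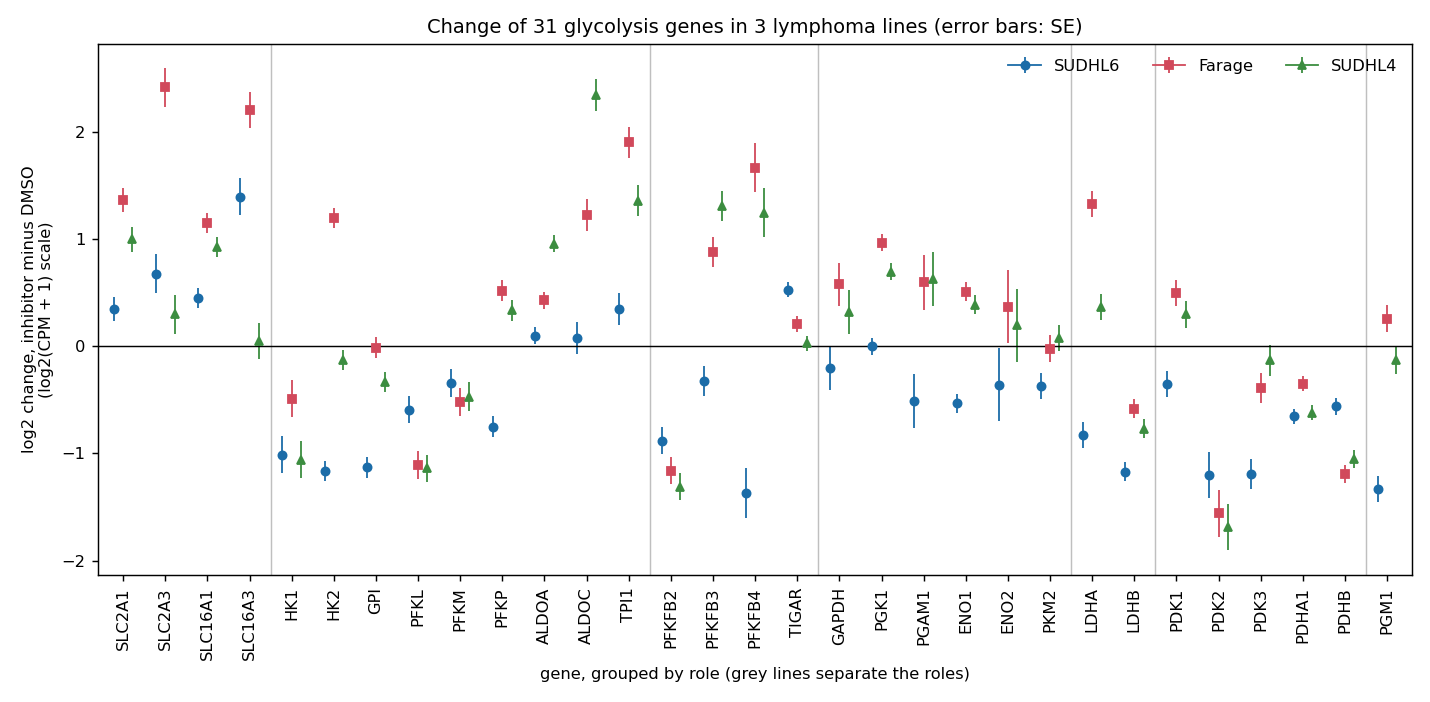
Difference between inhibitor and DMSO (vertical axis, log2(CPM + 1) scale, bars are standard errors) of each of the 31 genes (horizontal axis, grouped by role) in SUDHL6 (circles), Farage (squares) and SUDHL4 (triangles). The transporters lie above 0, PDHA1 and PDHB lie below it in each line, and HK2, PFKP, PFKFB4, ENO1 and LDHA lie below 0 in SUDHL6 and above it in Farage.

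The 4 transporters were the group with no member lower in any line. All 4 rose in SUDHL6 and in Farage, and 2 of 4 rose in SUDHL4, with medians of 0.56, 1.79 and 0.62 on the log2 scale. Of all genes, 26.8%, 25.4% and 24.3% rose in these lines. SLC2A1, the widespread basal glucose carrier GLUT1, rose in all 3 lines. SLC2A1 in SUDHL6 stood at 68.1, 72.4 and 76.0 CPM with DMSO and 118, 81.3 and 81.8 CPM with the inhibitor. SLC2A1 in Farage stood at 53.7, 59.6 and 56.1 CPM with DMSO and 141, 147 and 154 CPM with the inhibitor, and the values of SUDHL4 were 65.9, 71.3 and 75.6 CPM with DMSO and 141, 134 and 154 CPM with the inhibitor. Every treated library was above the DMSO libraries of its line, with the smallest gap in SUDHL6. For SLC2A1 the log2 differences were 0.35 (SE 0.11, adjusted p = 0.0117) in SUDHL6 and 1.37 (SE 0.11, adjusted p = 2.23e-08) in Farage, and the SUDHL4 rise was 2-fold (adjusted p = 7.24e-07). Without SUDHL6 treated replicate 1, its highest library, the SUDHL6 call was lost (adjusted p = 0.064), and in a fit of SUDHL6 alone adjusted p = 0.123.

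SLC2A3, the high-affinity glucose carrier GLUT3, had the largest rise of any member in any line, in Farage. SLC2A3 in Farage was at 27.7, 31.1 and 29.2 CPM with DMSO and 166, 166 and 153 CPM with the inhibitor, a 5.36-fold rise. SLC2A3 in SUDHL6 was at 7.82, 7.40 and 13.9 CPM with DMSO and 12.7, 16.2 and 18.2 CPM with the inhibitor, where the third DMSO library overlapped the treated ones, and in SUDHL4, where the gene was near the floor, the values were 1.17, 1.11 and 0.971 CPM with DMSO and 1.55, 1.96 and 1.25 CPM with the inhibitor. For SLC2A3 the log2 differences were 0.68 (SE 0.18, adjusted p = 0.00329) in SUDHL6, 2.42 (SE 0.18, adjusted p = 7.01e-09) in Farage and 0.30 (SE 0.18, adjusted p = 0.145) in SUDHL4. The treated SUDHL4 libraries lay above the DMSO libraries, and the difference passed on median-of-ratios scaled values (adjusted p = 0.0261), in edgeR (0.00755), in DESeq2 (0.00195) and without SUDHL6 DMSO replicate 3 (0.0392). In a fit of SUDHL6 alone the SUDHL6 rise did not pass (adjusted p = 0.0932).

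SLC16A1 encodes MCT1, which carries lactate and pyruvate across the cell membrane in both directions. SLC16A1 in SUDHL6 measured 162, 149.8 and 169 CPM with DMSO and 243, 187 and 230.1 CPM with the inhibitor. SLC16A1 in Farage measured 112, 114 and 114 CPM with DMSO and 247, 262 and 249 CPM with the inhibitor, and SUDHL4 gave 182, 169 and 208 CPM with DMSO and 366, 364 and 333 CPM with the inhibitor. No treated library overlapped a DMSO library in any line. For SLC16A1 the log2 differences were 0.45 (SE 0.093, adjusted p = 0.000411) in SUDHL6, 1.15 (SE 0.093, adjusted p = 1.7e-08) in Farage and 0.93 (SE 0.093, adjusted p = 1.64e-07) in SUDHL4. SLC16A3 encodes MCT4, the lactate exporter of strongly glycolytic cells, and was low in every DMSO group. SLC16A3 in SUDHL6 measured 1.58, 1.40 and 1.93 CPM with DMSO and 5.68, 4.17 and 8.58 CPM with the inhibitor. SLC16A3 in Farage measured 5.98, 4.26 and 5.03 CPM with DMSO and 26.7, 25.4 and 29.2 CPM with the inhibitor, and in SUDHL4 the values were 0.182, 0.285 and 0.234 CPM with DMSO and 0.184, 0.320 and 0.324 CPM with the inhibitor. The treated libraries were above the DMSO libraries in SUDHL6 and Farage and overlapped them in SUDHL4, where the gene was under 1 CPM. For SLC16A3 the log2 differences were 1.40 (SE 0.17, adjusted p = 1.99e-06), 2.21 (SE 0.17, adjusted p = 9.51e-09) and 0.05 (SE 0.17, adjusted p = 0.833) in SUDHL6, Farage and SUDHL4.

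Of the 9 upper enzymes, which take glucose to triose phosphate, 1 rose and 6 fell in SUDHL6, 5 rose and 3 fell in Farage, and 4 rose and 4 fell in SUDHL4. Of all genes, 26.8% rose and 41.3% fell in SUDHL6, 25.4% and 46.5% in Farage, and 24.3% and 46.2% in SUDHL4. The falls in SUDHL4 lie near that share. The hexokinases parted from each other. HK1, the form expressed in most tissues, fell in all 3 lines. HK1 in SUDHL6 was at 97.0, 97.3 and 128 CPM with DMSO and 35.5, 58.4 and 68.5 CPM with the inhibitor. HK1 in Farage was at 182, 173 and 171 CPM with DMSO and 119, 122 and 133 CPM with the inhibitor, and SUDHL4 had 90.5, 100.2 and 84.6 CPM with DMSO and 41.0, 41.2 and 48.6 CPM with the inhibitor. In each line all treated libraries lay below the DMSO libraries. For HK1 the log2 differences were -1.01 (SE 0.17, adjusted p = 6.67e-05) in SUDHL6, -0.49 (SE 0.17, adjusted p = 0.0176) in Farage and -1.06 (SE 0.17, adjusted p = 3.73e-05) in SUDHL4. The Farage call was lost on median-of-ratios scaled values (adjusted p = 0.181), in edgeR (0.137) and DESeq2 (0.188), and without Farage DMSO replicate 1 (0.0508) or treated replicate 1 (0.053).

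HK2, the inducible hexokinase of muscle and of many tumours, fell in SUDHL6 and rose in Farage. HK2 in SUDHL6 was at 112, 112 and 106 CPM with DMSO and 59.8, 44.9 and 43.2 CPM with the inhibitor. HK2 in Farage was at 34.2, 33.3 and 34.1 CPM with DMSO and 77.9, 79.0 and 81.1 CPM with the inhibitor, and in SUDHL4 the values were 115, 123 and 111 CPM with DMSO and 100.1, 107 and 111 CPM with the inhibitor. The groups were clear of each other in SUDHL6 and in Farage, and in SUDHL4 the treated libraries touched the lowest DMSO value. For HK2 the log2 differences were -1.16 (SE 0.093, adjusted p = 2.65e-08) in SUDHL6, 1.20 (SE 0.093, adjusted p = 1.05e-08) in Farage and -0.13 (SE 0.093, adjusted p = 0.217) in SUDHL4. That is 2.23-fold lower in SUDHL6 and 2.31-fold higher in Farage. The difference between the SUDHL6 and the Farage response was -2.36 (SE 0.13, adjusted p = 3.13e-09), and both the fall in SUDHL6 and the rise in Farage were called under every alternative tried. The SUDHL4 value passed only without SUDHL6 treated replicate 1 (adjusted p = 0.0495).

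Phosphofructokinase is built from liver (PFKL), muscle (PFKM) and platelet (PFKP) subunits, which also parted. PFKL in SUDHL6 was at 160.2, 174 and 167 CPM with DMSO and 121, 128 and 87.5 CPM with the inhibitor. PFKL in Farage was at 131, 127 and 118 CPM with DMSO and 56.2, 55.5 and 61.6 CPM with the inhibitor, and SUDHL4 had 142, 149 and 114 CPM with DMSO and 55.8, 69.8 and 56.6 CPM with the inhibitor. PFKL thus fell in all 3 lines with no overlap, by log2 differences of -0.59 (SE 0.13, adjusted p = 0.000687), -1.11 (SE 0.13, adjusted p = 1.04e-06) and -1.14 (SE 0.13, adjusted p = 7.05e-07) in SUDHL6, Farage and SUDHL4. PFKM in SUDHL6 was at 132, 142 and 117 CPM with DMSO and 119.8, 120.3 and 73.7 CPM with the inhibitor. PFKM in Farage was at 107, 109.7 and 111 CPM with DMSO and 76.8, 74.0 and 76.8 CPM with the inhibitor, and SUDHL4 had 225, 238 and 216 CPM with DMSO and 160.2, 161 and 166 CPM with the inhibitor. PFKM was clear of its DMSO libraries in Farage and SUDHL4 but not in SUDHL6. For PFKM the log2 differences were -0.34 (SE 0.13, adjusted p = 0.0307), -0.52 (SE 0.13, adjusted p = 0.00235) and -0.47 (SE 0.13, adjusted p = 0.00465). Its calls were lost in each line on median-of-ratios scaled values (adjusted p = 0.286, 0.0773 and 0.269) and with edgeR and DESeq2, and in SUDHL6 also without DMSO replicate 1 (0.0714), DMSO replicate 2 (0.112) or treated replicate 3 (0.194).

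PFKP, the third subunit, did not share the pattern of the other two. PFKP in SUDHL6 was at 142, 171 and 190 CPM with DMSO and 91.5, 107 and 97.2 CPM with the inhibitor. PFKP in Farage was at 197, 195 and 182 CPM with DMSO and 265, 262 and 300.1 CPM with the inhibitor, and SUDHL4 had 97.2, 100.4 and 96.5 CPM with DMSO and 123, 115 and 136 CPM with the inhibitor. All treated libraries lay below the DMSO libraries in SUDHL6 and above them in Farage and SUDHL4. For PFKP the log2 differences were -0.75 (SE 0.098, adjusted p = 3.91e-06) in SUDHL6, 0.52 (SE 0.098, adjusted p = 0.00015) in Farage and 0.34 (SE 0.098, adjusted p = 0.00518) in SUDHL4.

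Aldolase splits the 6-carbon sugar, and triose phosphate isomerase interconverts its products. ALDOC, the aldolase best known from brain, rose in Farage and most in SUDHL4. ALDOC in SUDHL6 was at 38.6, 45.3 and 48.0 CPM with DMSO and 43.8, 46.0 and 49.2 CPM with the inhibitor. ALDOC in Farage was at 122, 137 and 127 CPM with DMSO and 291, 302 and 314 CPM with the inhibitor, and SUDHL4 had 79.3, 75.7 and 134 CPM with DMSO and 463, 511 and 462 CPM with the inhibitor. The third SUDHL4 DMSO library was the highest of its group but far below the treated ones, and SUDHL6 overlapped. For ALDOC the log2 differences were 0.08 (SE 0.15, adjusted p = 0.68), 1.23 (SE 0.15, adjusted p = 2.12e-06) and 2.35 (SE 0.15, adjusted p = 1.45e-09) in SUDHL6, Farage and SUDHL4, a 5.1-fold rise in SUDHL4. TPI1 in SUDHL6 was at 264, 277 and 399 CPM with DMSO and 357, 355 and 479 CPM with the inhibitor. TPI1 in Farage was at 192, 227 and 211 CPM with DMSO and 733, 772 and 873 CPM with the inhibitor, and SUDHL4 had 371, 387 and 453 CPM with DMSO and 1006, 1093 and 1004 CPM with the inhibitor. For TPI1 the log2 differences were 0.35 (SE 0.14, adjusted p = 0.0426), 1.91 (SE 0.14, adjusted p = 8.61e-09) and 1.36 (SE 0.14, adjusted p = 3.56e-07). In SUDHL6 the groups overlapped through DMSO replicate 3, and the call was lost in a fit of SUDHL6 alone (adjusted p = 0.212), with no filter (0.0689) and without SUDHL6 DMSO replicate 1 (0.192), DMSO replicate 2 (0.152) or treated replicate 3 (0.214), and narrowly without Farage DMSO replicate 3 (0.0524), Farage treated replicate 2 (0.0521), SUDHL4 DMSO replicate 2 (0.0509), SUDHL4 treated replicate 1 (0.0516) or SUDHL4 treated replicate 3 (0.0509).

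ALDOA, the main aldolase of most tissues, averaged 849 ± 52.7 CPM with DMSO and 906 ± 14.1 CPM with the inhibitor in SUDHL6 (SD, n = 3). It averaged 624 ± 18.3 CPM and 841 ± 80.5 CPM in Farage, and 752 ± 35.6 CPM and 1467 ± 85.3 CPM in SUDHL4. ALDOA rose in Farage (0.43, SE 0.078, adjusted p = 0.000118) and SUDHL4 (0.96, SE 0.078, adjusted p = 1.53e-08), and its SUDHL6 difference of 0.10 passed only on median-of-ratios scaled values (adjusted p = 0.0105), edgeR (0.00859) and DESeq2 (0.00182). GPI, which turns glucose 6-phosphate into fructose 6-phosphate, averaged 369 ± 37.6 CPM and 169 ± 25.6 CPM in SUDHL6, 359 ± 1.79 CPM and 356 ± 11.5 CPM in Farage, and 283 ± 10.4 CPM and 226 ± 10.4 CPM in SUDHL4. GPI fell in SUDHL6 (-1.13, SE 0.096, adjusted p = 4.27e-08) and in SUDHL4 (-0.33, SE 0.096, adjusted p = 0.00605) and not in Farage (-0.01, SE 0.096, adjusted p = 0.924). With median-of-ratios scaling the GPI difference in Farage was 0.23 and higher (adjusted p = 0.0262), and the SUDHL4 call was lost (adjusted p = 0.822).

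**Figure D3:**
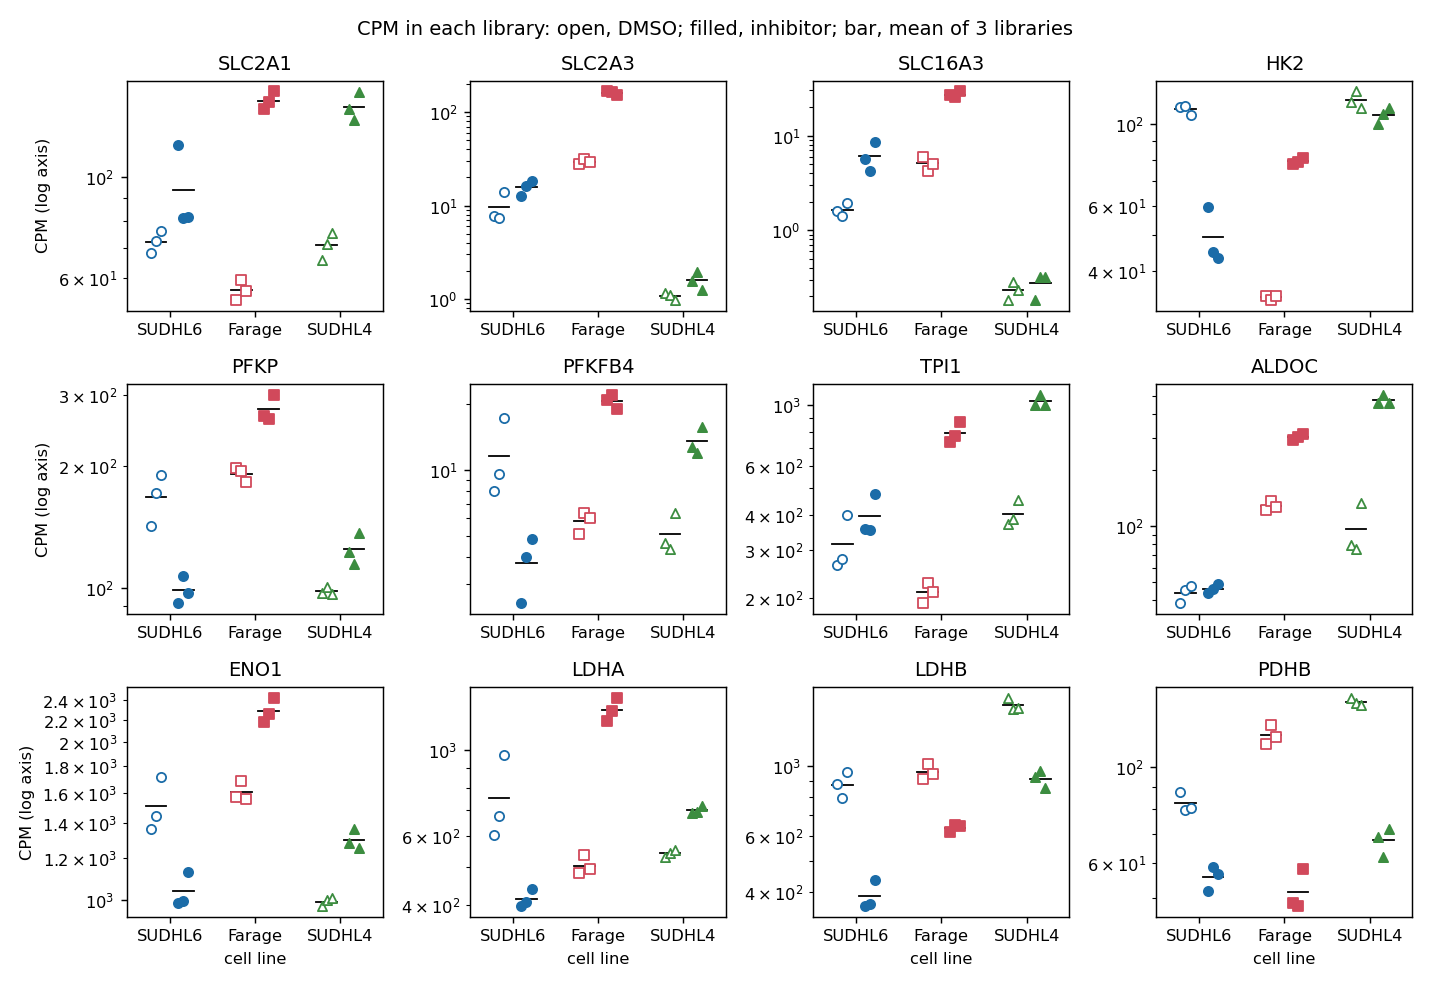
Level of 12 members in each of the 18 libraries (vertical axes, CPM, log scale, a separate range for each gene) by line, with open symbols for DMSO, filled symbols for the inhibitor and bars for the mean of 3 libraries. HK2 and LDHA sit lower with the inhibitor in SUDHL6 and higher in Farage.

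The 4 regulators of fructose 2,6-bisphosphate, the small molecule that speeds phosphofructokinase, showed 1 rise and 2 falls in SUDHL6, 3 rises and 1 fall in Farage, and 2 rises and 1 fall in SUDHL4. Over all genes the shares that rose and fell were 26.8% and 41.3%, 25.4% and 46.5%, and 24.3% and 46.2%. The SUDHL6 counts lie near those shares. PFKFB2, the heart form of the enzyme that makes and breaks fructose 2,6-bisphosphate, fell in all 3 lines. PFKFB2 in SUDHL6 was at 3.93, 2.64 and 3.11 CPM with DMSO and 1.12, 1.55 and 1.21 CPM with the inhibitor. PFKFB2 in Farage was at 17.8, 17.8 and 19.1 CPM with DMSO and 7.30, 8.10 and 7.44 CPM with the inhibitor, and SUDHL4 had 29.1, 31.9 and 25.1 CPM with DMSO and 10.1, 11.6 and 11.2 CPM with the inhibitor. No treated library overlapped a DMSO library. For PFKFB2 the log2 differences were -0.88 (SE 0.12, adjusted p = 9.56e-06), -1.16 (SE 0.12, adjusted p = 3.63e-07) and -1.31 (SE 0.12, adjusted p = 8.68e-08) in SUDHL6, Farage and SUDHL4. PFKFB3, the inducible form with strong kinase activity, rose in Farage and SUDHL4. PFKFB3 in SUDHL6 was at 63.6, 72.1 and 109 CPM with DMSO and 66.2, 55.2 and 69.6 CPM with the inhibitor. PFKFB3 in Farage was at 103, 97.9 and 98.4 CPM with DMSO and 183, 188 and 182 CPM with the inhibitor, and SUDHL4 had 81.7, 81.3 and 95.3 CPM with DMSO and 215, 215 and 213 CPM with the inhibitor. The SUDHL6 groups overlapped and the other lines did not. For PFKFB3 the log2 differences were -0.32 (SE 0.14, adjusted p = 0.053), 0.88 (SE 0.14, adjusted p = 3.22e-05) and 1.31 (SE 0.14, adjusted p = 3.8e-07). With the replicate number as a block, PFKFB3 was called lower in SUDHL6 (adjusted p = 0.019), as it was without SUDHL6 DMSO replicate 1 (0.00533), DMSO replicate 2 (0.0402) or treated replicate 3 (0.036).

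PFKFB4, the testis form also induced in hypoxic tumour cells, went in opposite directions. PFKFB4 in SUDHL6 was at 7.97, 9.55 and 17.4 CPM with DMSO and 2.45, 4 and 4.83 CPM with the inhibitor. PFKFB4 in Farage was at 5.07, 6.35 and 6 CPM with DMSO and 20.8, 22.1 and 19.0 CPM with the inhibitor, and SUDHL4 had 4.63, 4.34 and 6.33 CPM with DMSO and 12.8, 12.0 and 15.7 CPM with the inhibitor. The treated libraries lay below all DMSO libraries in SUDHL6 and above them in Farage and SUDHL4. For PFKFB4 the log2 differences were -1.37 (SE 0.23, adjusted p = 6.08e-05), 1.67 (SE 0.23, adjusted p = 6.67e-06) and 1.25 (SE 0.23, adjusted p = 0.000126), the lowest of any member in SUDHL6. TIGAR, a p53 target that breaks down fructose bisphosphates, rose in SUDHL6 and Farage. TIGAR in SUDHL6 was at 38.9, 34.1 and 39.8 CPM with DMSO and 57.3, 50.7 and 55.9 CPM with the inhibitor. TIGAR in Farage was at 67.2, 64.1 and 63.6 CPM with DMSO and 73.1, 75.6 and 76.5 CPM with the inhibitor, and SUDHL4 had 48.6, 45.6 and 48.7 CPM with DMSO and 48.3, 47.3 and 50.3 CPM with the inhibitor. The rise was without overlap in SUDHL6 (0.53, SE 0.071, adjusted p = 6.12e-06) and Farage (0.21, SE 0.071, adjusted p = 0.0159), and stood at 0.03 (SE 0.071, adjusted p = 0.74) in SUDHL4. The Farage call was lost without DMSO replicate 3 (adjusted p = 0.0529), and SUDHL4 was called higher on median-of-ratios scaled values (adjusted p = 0.00234).

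The 6 lower enzymes, which take triose phosphate to pyruvate and give the ATP, had no rise and 2 falls in SUDHL6, 4 rises and no fall in Farage, and 3 rises and no fall in SUDHL4. Over all genes the shares that rose and fell were 26.8% and 41.3%, 25.4% and 46.5%, and 24.3% and 46.2%. The falls in SUDHL6 lie near that share. PKM2, pyruvate kinase of dividing cells, is read here as the whole PKM gene, which the files do not state, and its splice forms were not told apart. PKM2 in SUDHL6 was at 1351, 1533 and 1743 CPM with DMSO and 959.7, 1225 and 1410 CPM with the inhibitor. PKM2 in Farage was at 1910, 2136 and 2016 CPM with DMSO and 1862, 1896 and 2240 CPM with the inhibitor, and SUDHL4 had 1175, 1212 and 1116 CPM with DMSO and 1189, 1275 and 1233 CPM with the inhibitor. Treated and DMSO libraries overlapped in every line. For PKM2 the log2 differences were -0.37 (SE 0.12, adjusted p = 0.0136), -0.02 (SE 0.12, adjusted p = 0.907) and 0.08 (SE 0.12, adjusted p = 0.605). The SUDHL6 fall was lost on median-of-ratios scaled values (adjusted p = 0.164), edgeR (0.17), DESeq2 (0.14), a fit of SUDHL6 alone (0.172) and without DMSO replicate 3 (0.0679) or treated replicate 1 (0.0936). In SUDHL4 median-of-ratios scaling gave a call of higher (adjusted p = 0.0106).

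ENO1, the enolase of most cells, averaged 1508 ± 183 CPM with DMSO and 1039 ± 80.2 CPM with the inhibitor in SUDHL6. It averaged 1604 ± 71.3 CPM and 2290 ± 124 CPM in Farage, and 993 ± 17.9 CPM and 1301 ± 56 CPM in SUDHL4. ENO1 fell in SUDHL6 (-0.53, SE 0.088, adjusted p = 5.2e-05) and rose in Farage (0.51, SE 0.088, adjusted p = 6.79e-05) and SUDHL4 (0.39, SE 0.088, adjusted p = 0.000863), with no overlap in any line. PGK1, which makes the first ATP of the path, averaged 391 ± 35.8 CPM and 392 ± 20.1 CPM in SUDHL6, 535 ± 36 CPM and 1050 ± 60.8 CPM in Farage, and 470.3 ± 20.3 CPM and 767 ± 37.8 CPM in SUDHL4. PGK1 rose in Farage (0.97, SE 0.079, adjusted p = 1.87e-08) and SUDHL4 (0.70, SE 0.079, adjusted p = 6.56e-07) and stood at 0.00 (SE 0.079, adjusted p = 0.981) in SUDHL6.

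GAPDH oxidises triose phosphate and is often used as a reference gene. It ranged from 1737 to 3178 CPM with DMSO and 1456 to 2819 CPM with the inhibitor in SUDHL6, and averaged 1453 ± 58.5 CPM and 2178 ± 118 CPM in Farage and 2497 ± 52.8 CPM and 3110 ± 171 CPM in SUDHL4. GAPDH rose in Farage (0.58, SE 0.20, adjusted p = 0.0171, lost without treated replicate 3 at adjusted p = 0.0547), and gave -0.20 (SE 0.20, adjusted p = 0.396) in SUDHL6 and 0.32 (SE 0.20, adjusted p = 0.179) in SUDHL4. With the replicate block GAPDH was called lower in SUDHL6 (adjusted p = 0.0118) and higher in SUDHL4 (adjusted p = 0.000665), and it was called higher in SUDHL4 too on median-of-ratios scaled values (adjusted p = 0.0149) and without the shallow SUDHL6 libraries (0.0045). Without SUDHL6 treated replicate 3 it was lower in SUDHL6 (adjusted p = 0.0264). In a fit of SUDHL4 alone GAPDH was called higher there (adjusted p = 0.00931).

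PGAM1 moves a phosphate along the 3-carbon acid. It averaged 29.7 ± 1.02 CPM and 45.4 ± 1.31 CPM in Farage and 22.5 ± 0.788 CPM and 35.4 ± 1.12 CPM in SUDHL4, and ranged over 19.2 to 46.6 CPM with DMSO and 14.0 to 28.0 CPM with the inhibitor in SUDHL6, the top of both ranges being replicate 3. PGAM1 rose in Farage (0.60, SE 0.26, adjusted p = 0.0464) and SUDHL4 (0.63, SE 0.26, adjusted p = 0.0364) and gave -0.51 (SE 0.26, adjusted p = 0.09) in SUDHL6. With the replicate block the SUDHL6 value was called lower (adjusted p = 0.000238), as it was without the shallow libraries (0.000478), DMSO replicate 1 (0.0255), DMSO replicate 2 (0.0409) or treated replicate 3 (0.00697). The Farage and SUDHL4 calls were each lost with no filter (0.0722 and 0.0602) and when any library of the line itself was left out (adjusted p up to 0.1 and 0.0842), and in Farage also without any one SUDHL4 library (up to 0.0559). ENO2, the neuronal enolase, ranged over 5.66 to 19.0 CPM and 4.62 to 12.3 CPM in SUDHL6, 118 to 121 CPM and 152 to 159 CPM in Farage and 17.0 to 18.9 CPM and 19.3 to 22.2 CPM in SUDHL4, and no line passed (0.366, 0.338 and 0.64 as adjusted p). Its treated libraries lay above the DMSO libraries in Farage and SUDHL4. The main fit gives ENO2 the same SE in every line (0.341), which takes in the spread of the SUDHL6 libraries. In a fit of Farage alone ENO2 was called higher (adjusted p = 1.37e-05). Without the shallow SUDHL6 libraries ENO2 was called in all 3 lines (adjusted p = 0.0148, 0.00013 and 0.0173), lower in SUDHL6 and higher in the others, and with the replicate block in SUDHL6 (0.00279) and Farage (0.00207).

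Lactate dehydrogenase is built from A and B subunits. LDHA, which favours making lactate, fell in SUDHL6 and rose in Farage and SUDHL4, while LDHB, which favours using it, fell in all 3 lines. LDHA in SUDHL6 was at 604, 678 and 972 CPM with DMSO and 396, 406 and 438 CPM with the inhibitor. LDHA in Farage was at 482, 538 and 493 CPM with DMSO and 1187, 1260 and 1365 CPM with the inhibitor, and SUDHL4 had 532, 544 and 554 CPM with DMSO and 689, 694 and 718 CPM with the inhibitor. The groups were clear of each other in each line, with the narrowest gap in SUDHL4. For LDHA the log2 differences were -0.83 (SE 0.12, adjusted p = 1.65e-05), 1.33 (SE 0.12, adjusted p = 7.57e-08) and 0.37 (SE 0.12, adjusted p = 0.0141) in SUDHL6, Farage and SUDHL4, or 1.78-fold lower, 2.51-fold higher and 1.29-fold higher. LDHB in SUDHL6 was at 875, 792 and 956 CPM with DMSO and 361, 367 and 437 CPM with the inhibitor. LDHB in Farage was at 908, 1017 and 942 CPM with DMSO and 617, 650.1 and 645 CPM with the inhibitor, and SUDHL4 had 1644, 1511 and 1525 CPM with DMSO and 924, 962 and 855 CPM with the inhibitor. All treated libraries lay below all DMSO libraries of their line. For LDHB the log2 differences were -1.17 (SE 0.089, adjusted p = 1.4e-08), -0.58 (SE 0.089, adjusted p = 1.94e-05) and -0.77 (SE 0.089, adjusted p = 8.15e-07).

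The pyruvate dehydrogenase genes and their kinases mostly fell: 5 of 5 in SUDHL6, 4 of 5 in Farage and 3 of 5 in SUDHL4, where 41.3%, 46.5% and 46.2% of all genes fell, with PDK1 higher in Farage and SUDHL4. The SUDHL4 count lies near that share. PDHA1 and PDHB encode the subunits of the enzyme's first component. PDHA1 averaged 101 ± 6.14 CPM and 63.7 ± 2.9 CPM in SUDHL6, 119.7 ± 4.52 CPM and 94.0 ± 4.17 CPM in Farage, and 94.4 ± 5.31 CPM and 61.3 ± 3.64 CPM in SUDHL4. It fell in each line with log2 differences of -0.65 (SE 0.07, adjusted p = 5.81e-07), -0.35 (SE 0.07, adjusted p = 0.000324) and -0.62 (SE 0.07, adjusted p = 7.85e-07), though in Farage not on median-of-ratios scaled values (adjusted p = 0.187). PDHB averaged 82.4 ± 4.42 CPM and 55.8 ± 3.5 CPM in SUDHL6, 118 ± 5.98 CPM and 51.5 ± 5.77 CPM in Farage, and 141 ± 2.89 CPM and 67.7 ± 5.1 CPM in SUDHL4. PDHB fell by log2 differences of -0.56 (SE 0.083, adjusted p = 1.83e-05), -1.19 (SE 0.083, adjusted p = 3.51e-09) and -1.05 (SE 0.083, adjusted p = 1.28e-08), with no overlap in any line.

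The kinases PDK1, PDK2 and PDK3 switch this enzyme off by phosphorylation. PDK2 in SUDHL6 was at 5.39, 4.04 and 8.67 CPM with DMSO and 1.64, 1.42 and 3.02 CPM with the inhibitor. PDK2 in Farage was at 8.59, 8.80 and 8.25 CPM with DMSO and 1.53, 2.67 and 2.62 CPM with the inhibitor, and SUDHL4 had 18.9, 20.2 and 17.7 CPM with DMSO and 5.09, 5.66 and 4.86 CPM with the inhibitor. PDK2 was lower in every treated library, and its log2 differences of -1.20 (SE 0.22, adjusted p = 0.000117), -1.56 (SE 0.22, adjusted p = 6.82e-06) and -1.69 (SE 0.22, adjusted p = 2.86e-06) were the lowest of any member in Farage and SUDHL4. PDK1, a known hypoxia-induced gene, stood apart from it. PDK1 in SUDHL6 was at 28.1, 24.8 and 36.3 CPM with DMSO and 26.3, 24.4 and 18.4 CPM with the inhibitor. PDK1 in Farage was at 43.6, 46.9 and 42.5 CPM with DMSO and 63.6, 63.4 and 61.8 CPM with the inhibitor, and SUDHL4 had 99.0, 95.1 and 104 CPM with DMSO and 126, 116 and 127 CPM with the inhibitor. For PDK1 the log2 differences were -0.35 (SE 0.12, adjusted p = 0.0196), 0.50 (SE 0.12, adjusted p = 0.00204) and 0.30 (SE 0.12, adjusted p = 0.0426), and only the SUDHL6 libraries overlapped. The SUDHL6 fall rested on replicate 3: without both shallow libraries the log2 difference was -0.06 (adjusted p = 0.579), without DMSO replicate 3 adjusted p = 0.131, and without treated replicate 3 adjusted p = 0.123. It was also lost on median-of-ratios scaled values (adjusted p = 0.257), and the SUDHL4 call was lost with the replicate block (adjusted p = 0.0746), with no filter (0.0612) and without any SUDHL4 library but treated replicate 2 (up to 0.117) or any Farage library but DMSO replicate 2 (up to 0.0523).

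PDK3 averaged 38.0 ± 3.08 CPM and 16.5 ± 5.1 CPM in SUDHL6, 164 ± 6.92 CPM and 125 ± 4.45 CPM in Farage, and 64.3 ± 1.95 CPM and 58.7 ± 6.28 CPM in SUDHL4. It fell in SUDHL6 (-1.19, SE 0.14, adjusted p = 1.66e-06) and Farage (-0.39, SE 0.14, adjusted p = 0.0219) and gave -0.13 (SE 0.14, adjusted p = 0.421) in SUDHL4. The Farage call was lost on median-of-ratios scaled values (adjusted p = 0.318) and without DMSO replicate 3 (0.0652) or treated replicate 2 (0.0654). PGM1 links glycolysis to glycogen by moving the phosphate of glucose between 2 positions. PGM1 in SUDHL6 was at 94.9, 98.0 and 95.3 CPM with DMSO and 34.1, 50.0 and 31.4 CPM with the inhibitor. PGM1 in Farage was at 58.9, 64.5 and 56.5 CPM with DMSO and 68.5, 70.6 and 77.0 CPM with the inhibitor, and SUDHL4 had 15.0, 16.2 and 14.4 CPM with DMSO and 14.4, 13.1 and 14.1 CPM with the inhibitor. The treated libraries lay below the DMSO libraries in SUDHL6, above them in Farage, and overlapped them in SUDHL4. For PGM1 the log2 differences were -1.33 (SE 0.12, adjusted p = 1.21e-07), 0.26 (SE 0.12, adjusted p = 0.07) and -0.13 (SE 0.12, adjusted p = 0.385), and the Farage value was called higher on median-of-ratios scaled values (adjusted p = 0.00063), in a fit of Farage alone (0.00466), without the shallow SUDHL6 libraries (0.04) and without SUDHL6 treated replicate 2 (0.00514) or 3 (0.0386).

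Set side by side, 3 members (TPI1, SLC2A1 and SLC16A1) rose in all 3 lines, as did 14.7% of all genes, and 8 (HK1, PFKL, PFKM, PFKFB2, LDHB, PDK2, PDHA1 and PDHB) fell in all 3, as did 28.3% of all genes. Neither count exceeded the share of all genes. In some alternative fits TPI1 and SLC2A1 lost their rise in SUDHL6, HK1 and PDHA1 their fall in Farage, and PFKM its fall in each line. A further 10 (PFKP, PFKFB3, PFKFB4, ALDOA, ALDOC, PGK1, PGAM1, ENO1, LDHA and PDK1) rose in Farage and SUDHL4 but not in SUDHL6, a pattern of 2.59% of all genes. In some alternative fits PGAM1 lost its rise in Farage and in SUDHL4, PDK1 lost its rise in SUDHL4, and ALDOA rose in SUDHL6 too. Of the 10, PFKP, PFKFB4, ENO1, LDHA and PDK1 fell in SUDHL6, as 0.235% of all genes did. With HK2, 6 members fell in SUDHL6 and rose in Farage or SUDHL4 (1.9% of all genes), and no member rose in SUDHL6 and fell in Farage or SUDHL4 (3.1% of all genes). HK2, PFKP, PFKFB4, ENO1 and LDHA held this opposite pattern in every alternative fit tried, and PDK1 did not. Asking also for a fold of at least 1.5 kept HK2, PFKFB4 and LDHA in it. PFKP, 1.44-fold higher in Farage and 1.26-fold in SUDHL4, and ENO1, 1.45-fold lower in SUDHL6, were then lost. The count of members with this pattern was 10 with the replicate block and 8 without the shallow libraries, while the shares above are from the main fit.

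The response itself was tested between lines. It differed among the 3 lines for 24 of 31 members in an F-test over the 3 lines, as it did for 55.9% of all genes. Between SUDHL6 and Farage it differed for 25 members (36.8% of all genes), of which 22 were lower in SUDHL6 and 3 higher, against 15.1% and 21.7% of all genes. Between SUDHL6 and SUDHL4 it differed for 22 (35% of all genes), with 18 lower in SUDHL6 and 4 higher, against 12.5% and 22.5% of all genes. Between SUDHL4 and Farage it differed for 8 (37.4% of all genes), with 6 lower in SUDHL4 and 2 higher, against 19.7% and 17.7% of all genes, though 13 differed with the replicate block and 16 in a fit without SUDHL6. Without the shallow libraries these counts were 29 for the F-test, 28 between SUDHL6 and Farage, 27 between SUDHL6 and SUDHL4 and 11 between SUDHL4 and Farage. The shares of all genes given here are from the main fit, so the counts from other fits cannot be set against them. The comparisons between lines share samples, so they are not independent of each other. The widest difference was that of PFKFB4, -3.04 (SE 0.33, adjusted p = 2.94e-06) between SUDHL6 and Farage and -2.62 (SE 0.33, adjusted p = 1.85e-05) between SUDHL6 and SUDHL4. LDHA differed by -2.16 (SE 0.17, adjusted p = 1.44e-07) between SUDHL6 and Farage and by -0.96 (SE 0.17, adjusted p = 0.000389) between SUDHL4 and Farage. ALDOC, by contrast, differed by 1.12 (SE 0.21, adjusted p = 0.000654) between SUDHL4 and Farage, the other way. SLC2A3 and SLC16A3, low in SUDHL4, differed there from Farage by -2.12 (SE 0.26, adjusted p = 7.99e-06) and -2.17 (SE 0.24, adjusted p = 3.25e-06).

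**Figure D4:**
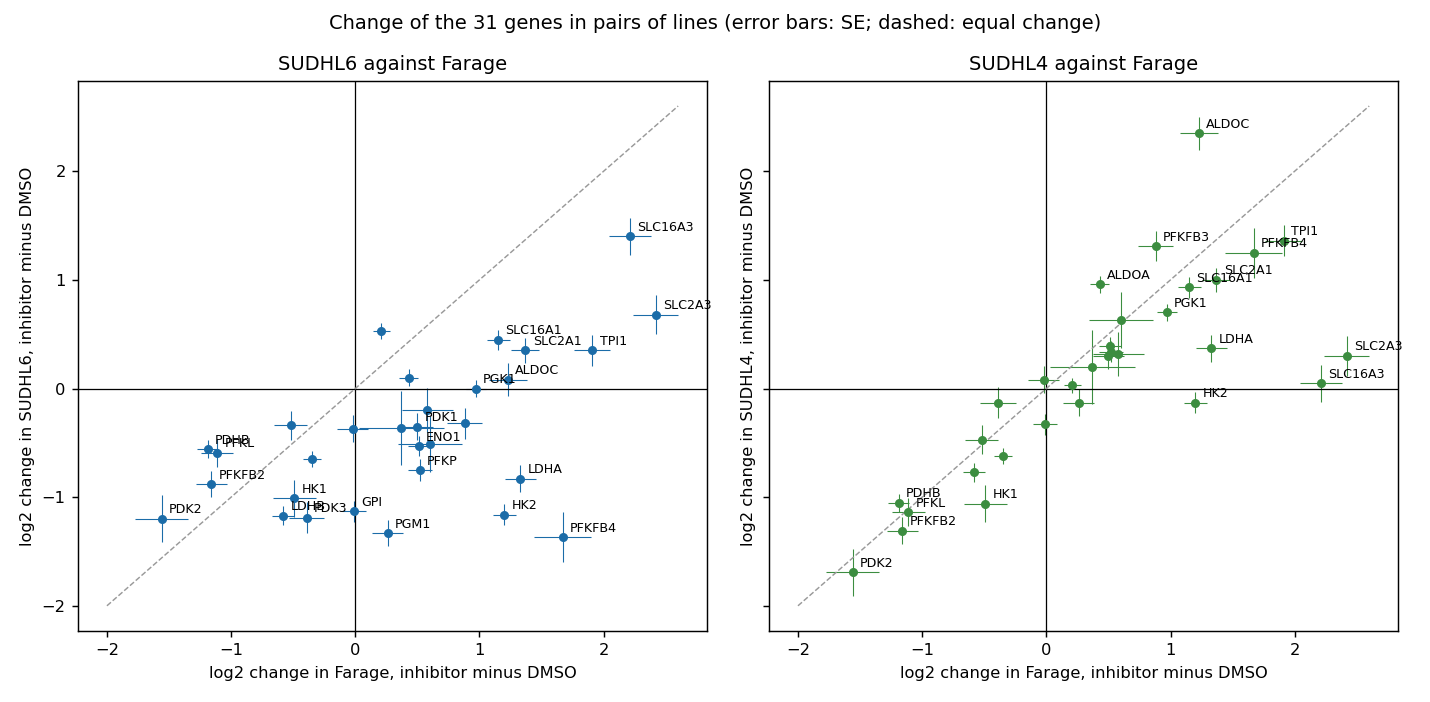
Log2 difference between inhibitor and DMSO of the 31 genes in SUDHL6 and in SUDHL4 (vertical axes) against that in Farage (horizontal axis), on the log2(CPM + 1) scale, with standard errors as bars and a dashed line of equal difference. In SUDHL6 most members lie below the line of equal difference, with HK2, LDHA and PFKFB4 below 0 there and above 0 in Farage.

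The lines differed in these genes before treatment, though between SUDHL6 and each other line about as often as over all genes. With DMSO, 24 members differed between SUDHL6 and Farage (10 higher in SUDHL6 and 14 lower), 26 between SUDHL4 and Farage (12 higher in SUDHL4 and 14 lower) and 22 between SUDHL6 and SUDHL4 (10 higher in SUDHL6 and 12 lower), where 71.3%, 67.1% and 68.6% of all genes differed. Of all genes, 37.5% were higher and 33.8% lower in SUDHL6 than in Farage, 31.1% higher and 36% lower in SUDHL4 than in Farage, and 38.5% higher and 30.1% lower in SUDHL6 than in SUDHL4. SLC2A3 with DMSO averaged 9.71 ± 3.65 CPM in SUDHL6, 29.3 ± 1.72 CPM in Farage and 1.08 ± 0.101 CPM in SUDHL4, and SUDHL4 was lower than Farage by a log2 difference of -3.86 (SE 0.18, adjusted p = 5.55e-12). HK2 with DMSO averaged 109.9 ± 3.59 CPM in SUDHL6, 33.9 ± 0.507 CPM in Farage and 116 ± 6.19 CPM in SUDHL4. SUDHL6 was above Farage by 1.67 (SE 0.093, adjusted p = 6.44e-11), while SUDHL6 and SUDHL4 gave -0.08 (SE 0.093, adjusted p = 0.482). With the inhibitor the order of HK2 was reversed between SUDHL6 (49.3 ± 9.08 CPM) and Farage (79.3 ± 1.62 CPM). PGM1 averaged 96.1 ± 1.7 CPM, 60.0 ± 4.12 CPM and 15.2 ± 0.936 CPM, and PDK1 29.7 ± 5.92 CPM, 44.3 ± 2.31 CPM and 99.5 ± 4.69 CPM, in SUDHL6, Farage and SUDHL4. ENO2 averaged 119 ± 2.04 CPM in Farage, and SUDHL6 differed from it by -3.64 (SE 0.34, adjusted p = 6.02e-08) and SUDHL4 by -2.67 (SE 0.34, adjusted p = 2.87e-06).

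**Figure D5:**
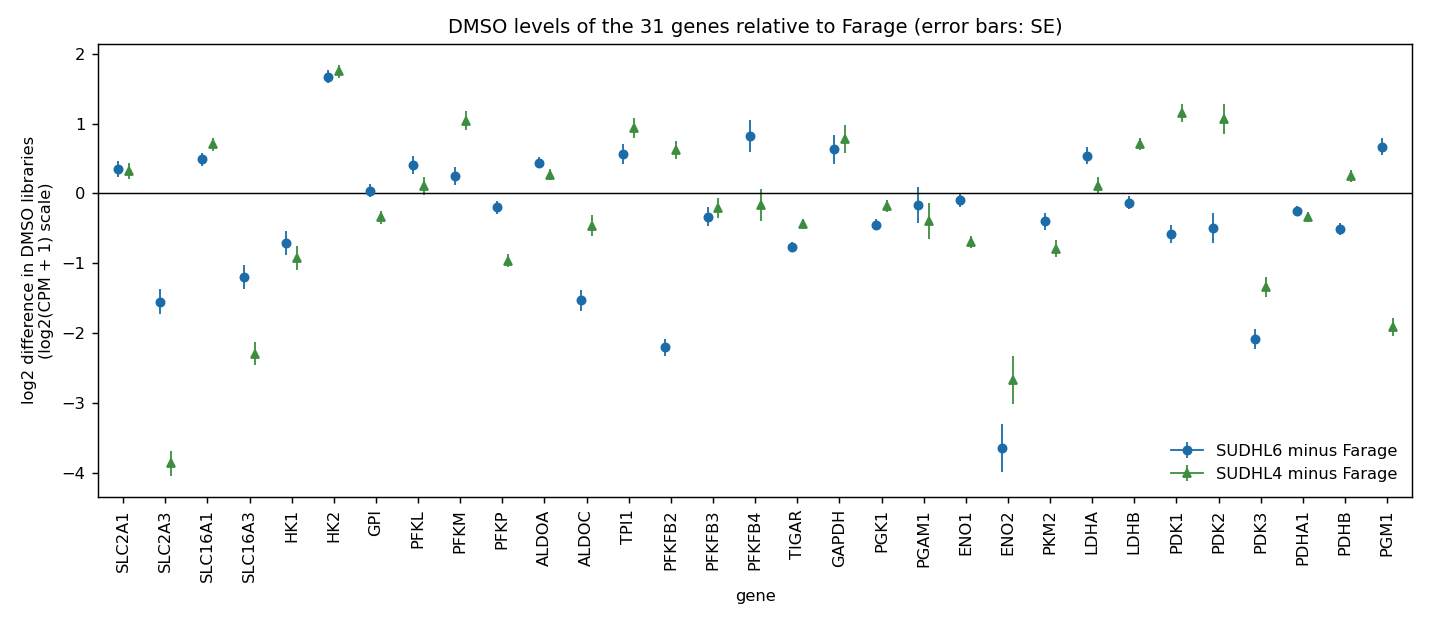
Difference of the DMSO level of each of the 31 genes from that in Farage (vertical axis, log2(CPM + 1) scale, bars are standard errors) for SUDHL6 (circles) and SUDHL4 (triangles). HK2 lies above 0 in both lines, and ENO2, SLC2A3 and SLC16A3 lie below it in both.

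Genes of neighbouring pathways were read from the same fit, as log2 differences averaged over the 3 lines, where 30.1% of all genes rose and 53.8% fell. Several of the counts that follow lie near those shares. Among 17 tested of 25 other sugar and monocarboxylate carriers and their partners, 1 rose and 13 fell in the mean of the lines, with a median of -0.49. SLC2A6, a glucose carrier of the lysosome, fell, at -2.02 (adjusted p = 8.49e-13), as did EMB, a partner of MCT2, at -1.44 (2.18e-09), and SLC16A13 at -0.95 (8.67e-08). Among 9 tested of 18 other glycolytic isoforms, 3 rose and 5 fell, with GAPDHS, the sperm form of GAPDH, at -1.01 (4.3e-08) and ENO3, the muscle enolase, at -0.61 (3.53e-06). Of 6 tested partners of pyruvate dehydrogenase, 1 rose and 3 fell, with DLAT, its acetyl-carrying component, at -1.33 (2.22e-11) and DLD, a further component, at -0.73 (2.64e-10). Of 9 genes of the pentose phosphate pathway tested, 2 rose and 7 fell, with RPIA at -1.16 (5.39e-13) and TALDO1 at 0.96 (2.16e-09). Of 15 glycogen genes tested, 4 rose and 10 fell, with GBE1, the glycogen branching enzyme, at 0.97 (3.68e-10). Of 4 gluconeogenesis genes tested, 2 rose and 1 fell. G6PC3, a glucose 6-phosphatase of most tissues, fell in all 3 lines, at -1.14 in SUDHL6 (9.77e-07), -1.69 in Farage (9.26e-09) and -1.59 in SUDHL4 (1.68e-08). PCK1, which makes phosphoenolpyruvate from oxaloacetate, was at 1.63 in Farage (8.21e-11), 0.04 in SUDHL6 (0.669) and 0.07 in SUDHL4 (0.43). PCK1 was almost absent from SUDHL6 and SUDHL4, at 0 CPM with DMSO and means of 0.02961 and 0.05145 CPM with the inhibitor. A fall could therefore not have been seen in SUDHL6 or SUDHL4. PCK1 is counted above among the genes that rose in the mean of the lines (0.58), and that rise came from Farage.

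The 13 tested genes known to regulate glycolytic genes showed 5 rises and 8 falls in the mean of the lines, beside the same 30.1% and 53.8% of all genes. MYC, a driver of glycolytic genes, fell in each line, with log2 differences of -1.45 in SUDHL6 (adjusted p = 4.88e-09), -0.27 in Farage (0.0207) and -3.78 in SUDHL4 (4.45e-13), of which the Farage value was close to the median of all genes there (-0.22). EPAS1, the hypoxia factor HIF-2 alpha, rose by 2.28 (6.65e-08), 3.53 (4.1e-10) and 0.82 (0.00169) in SUDHL6, Farage and SUDHL4. EPAS1 started near the floor, with DMSO means of 0.0378, 0.801 and 0.0217 CPM in these lines. With the inhibitor it averaged 4.265, 19.54 and 0.829 CPM, so it stayed under 1 CPM in SUDHL4. HIF1A messenger RNA rose in SUDHL6 (0.70, 1.86e-07) and SUDHL4 (0.32, 0.000587) and gave -0.15 in Farage (0.0669). TXNIP, which removes GLUT1 from the surface, fell, at -0.66 (0.00566), -1.38 (6.35e-06) and -2.05 (7.03e-08) in SUDHL6, Farage and SUDHL4. HIF1A and TXNIP were singled out after their values were seen. Reads of members with pseudogene copies listed in RefSeq (65 symbols for GAPDH, 13 for PGAM1, 6 for LDHA and 5 for PKM) could be split between copies, so these levels are uncertain.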

How the data were processed

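Messenger RNA was measured by RNA-seq in 18 libraries of 3 cell lines, 3 per group, made with a TruSeq kit per the labels. The deposited values are CPM per gene symbol. Per the submitters' processing notes, reads were aligned with STAR to hg19, and 1 sample label names Rsubread. Neither tool versions nor strand setting nor annotation release is stated in the labels or notes. The smallest non-zero CPM of each library was assumed to be 1 read, and the library's depth was inferred from it. Dividing the authors' CPM by that value gave whole reads for 100% of values (tolerance 0.01 reads). Listed genes held 74.63 to 80.72% of the inferred depth. Reads per library ran from 6.29 M to 25.49 M in listed genes, and a difference smaller than the sampling of low counts could not be detected.

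The main test was limma 3.58.1 (R 4.3.3) with an intensity trend on log2(CPM + 1), a mean for each of 6 groups, 12 residual degrees of freedom, two-sided, on 12769 genes with at least 1 CPM in at least 3 of 18 libraries, with Benjamini-Hochberg adjustment over all of them and a threshold of 0.05. The 6 groups share 1 spread per gene, so the SE and p-value of each line also reflect the spread of the other lines. Fold changes are on the log2(CPM + 1) scale, which understates low genes. Alternatives were a pseudocount of 0.25, no filter, a mean CPM of at least 5, median-of-ratios scaling, a fit of only the lines compared, the replicate number as a block, edgeR 4.0.16 and DESeq2 1.42.0 on the recovered reads, a fold of at least 1.5, leaving out each library, and (added after seeing the data) leaving out both shallow SUDHL6 libraries. The fit was tested on simulated data. Same-numbered SUDHL6 libraries deviated together (correlations of 0.42, 0.49 and 0.63), so the numbers pair there, and did not in Farage (0.17, -0.13 and -0.19) or SUDHL4 (-0.05, 0.03 and -0.07). No 2 libraries were duplicates.

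The members and gene lists were chosen with earlier results of these data known. Library values are given for hexokinases, phosphofructokinases, PFKFB3, PFKFB4, TIGAR, PKM2, the lactate dehydrogenases, transporters and PDK1, for the 6 members with the largest mean change and the 6 with the smallest F-test p, and list genes are the up to 3 with the smallest p. No set test was run.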

Additional observations from a re-analysis of the deposited data

Results flagged for a closer look

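For 24 of the 31 members the inhibitor's difference from DMSO was itself different among the 3 lines, in the limma F-test adjusted over all genes. The adjusted p was smallest for HK2 (5.17e-09), LDHA (2.77e-07), ALDOC (1.61e-06), PFKFB4 (2.47e-06), PFKP (2.75e-06), PGM1 (5.37e-06), ENO1 (7.21e-06) and SLC16A3 (7.57e-06). It was intermediate for PGK1 (9.45e-06), SLC2A3 (1.02e-05), GPI (1.49e-05), PFKFB3 (1.51e-05), ALDOA (2.92e-05), TPI1 (4.03e-05), SLC2A1 (0.00023) and PDHB (0.000717). It was largest, though still under the threshold, for PDK3 (0.000909), SLC16A1 (0.00098), TIGAR (0.00189), PDK1 (0.0019), LDHB (0.00269), PGAM1 (0.0194), PFKL (0.0272) and PDHA1 (0.0296). In HK2, LDHA, PFKFB4, PFKP and ENO1 the SUDHL6 response was downward and that of Farage upward, with no overlap of treated and DMSO libraries in either line, while in PDHB, LDHB and PDHA1 all 3 lines went down. No cause of these differences was tested.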

How the results depend on the processing

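Counts of members called, higher then lower, ran over the fits that leave out 1 library from 5 to 6 and 16 to 20 in SUDHL6, 16 to 19 and 8 to 9 in Farage, 11 to 14 and 9 to 10 in SUDHL4, and 12 to 16 and 11 to 12 in the mean of the lines. Members whose response differed ran from 20 to 29 (SUDHL6 minus Farage), 6 to 11 (SUDHL4 minus Farage), 20 to 25 (SUDHL6 minus SUDHL4) and 22 to 28 (any line), those that differed with DMSO from 22 to 26, 24 to 27 and 19 to 23 (SUDHL6 against Farage, SUDHL4 against Farage, SUDHL6 against SUDHL4), and those with the opposite pattern from 5 (without SUDHL6 DMSO replicate 3) to 9 (without SUDHL6 treated replicate 3). Members higher in SUDHL6 numbered 3 in a fit of that line alone. Members lower in Farage numbered 5 with median-of-ratios scaling, edgeR or DESeq2. A fold of at least 1.5 left 2 higher in SUDHL6, 4 lower in Farage, 7 higher and 6 lower in the mean, 5 for SUDHL4 minus Farage and 12 for SUDHL6 against Farage with DMSO. SUDHL4 minus Farage gave 16 with only those lines fitted and 13 with the replicate block, where the numbers pair the samples in SUDHL6 alone, and the block raised the opposite pattern to 10. Reversed signs were GPI in Farage (0.23 with median-of-ratios scaling, 0.23 with edgeR, 0.24 with DESeq2), HK2 in the mean of the lines (0.21, 0.24 and 0.23) and PKM2 in the mean (0.15 with edgeR and DESeq2); the cause was not tested. In single genes 8582 values kept their direction and call, 262 lost a call, 200 gained one and 8 reversed. DMSO contrasts have no replicate block fit. The shares of all genes called in these alternative fits are not given, so the counts describe the members only.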
